A study of Mus musculus with 6 samples.

Results

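Transcripts of 10 genes of the mouse cytochrome P450 2C family were examined in cap-enriched liver RNA. The members were taken by name from the deposited gene table and were Cyp2c29, Cyp2c37, Cyp2c38, Cyp2c39, Cyp2c40, Cyp2c44, Cyp2c50, Cyp2c54, Cyp2c55 and Cyp2c70, 10 of the 33495 genes listed. Livers of 3 SHP -/- mice were set against livers of 3 wild-type mice. All 6 animals were C57BL6 males aged 2 months, and the labels name no agent given to either group. SHP is the nuclear receptor encoded by Nr0b2, and the labels say neither how its allele was altered nor in which cells. The sources used here do not give which animals shared a sequencing lane, litter or day.

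CYP2C enzymes sit in the membrane of the endoplasmic reticulum, take electrons from cytochrome P450 oxidoreductase, and add oxygen to drugs, steroids and fatty acids. In mouse liver many of them turn arachidonic acid into epoxides or hydroxylated products, and Cyp2c70 turns chenodeoxycholic acid into muricholic acids, the bile acids that set mice apart from humans. Their genes lie mostly in a tandem cluster of close copies, and their transcription in hepatocytes is known to depend on HNF4A, C/EBP alpha and the xenobiotic receptors CAR and PXR. SHP lacks a DNA-binding domain and represses other transcription factors.

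As a whole, the family's transcripts were lower in knockout liver, and 6 of its 9 testable members fell. Of these, Cyp2c55 met the filter on low counts only through its wild-type libraries. The 3 knockout libraries held 2520, 2401 and 2575 CPM (counts relative to the scaled library total) summed over the 10 members, against 3949, 4429 and 4243 CPM in the 3 wild-type libraries. The mean was 2499 ± 89.2 CPM in knockout and 4207 ± 242 CPM in wild type (SD, n = 3 each), a log2 difference of −0.75. Each knockout sum lay below each wild-type sum. The sum does not depend on how reads were divided among members, and it is given as a description with no test. In bulk RNA, fewer cells of a type and less RNA per cell cannot be told apart.

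Library totals ran from 4494353 to 7225842 counts in knockout and from 4982530 to 6155064 in wild type. Mitochondrially encoded genes took 5.66% to 7.10% of knockout counts and 10.2% to 10.3% of wild-type counts. With those genes left out of the totals, the same number of members, 6, fell. Nr0b2 itself had 29, 36 and 77 counts in knockout and 104, 59 and 85 counts in wild type (log2 difference −0.81 ± 0.25 SE; adjusted p = 0.0443 by limma voom), so its transcripts were lower but still counted in the knockout libraries. Of the 6 fits without 1 library, 5 did not call it, and neither did the fits with no scaling (adjusted p = 0.0536) or no low-count filter (adjusted p = 0.0667).

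Sequences upstream of the members are shown first, because the members differed in their response while lying side by side. RefSeq (build GRCm38.p6) held windows from 250 bases before to 50 bases after the start site for 8 of the 10 members. Cyp2c44 and Cyp2c54 had none, and Cyp2c39 had 2 windows, which begin at 39347096 and 39510572 on chromosome 19. The counted Cyp2c39 gene lies beyond Cyp2c38 along the chromosome, as does the second window. The first window lies between those of Cyp2c29 and Cyp2c38, away from the counted gene. The windows of Cyp2c29 and Cyp2c70, the most abundant member that fell and the most abundant that did not pass the test, lie at chr19:39286835-39287134 on the plus strand and at chr19:40187237-40187536 on the minus strand. Each is printed from 5′ to 3′ along its gene. Capitals mark 3 motifs: CAAAGTC, letters within the HNF4A-specific binding motif; AGGTCA, the half-site of many nuclear receptors; and TATAAA, the TATA box, read as TTTATA where it lies on the opposite strand.
Cyp2c29: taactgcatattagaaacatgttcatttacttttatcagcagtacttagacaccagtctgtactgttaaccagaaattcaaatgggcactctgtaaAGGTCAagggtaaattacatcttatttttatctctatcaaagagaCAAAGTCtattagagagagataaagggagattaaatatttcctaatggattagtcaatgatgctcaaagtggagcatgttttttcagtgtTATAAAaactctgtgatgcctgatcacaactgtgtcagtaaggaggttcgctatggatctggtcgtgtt
Cyp2c70: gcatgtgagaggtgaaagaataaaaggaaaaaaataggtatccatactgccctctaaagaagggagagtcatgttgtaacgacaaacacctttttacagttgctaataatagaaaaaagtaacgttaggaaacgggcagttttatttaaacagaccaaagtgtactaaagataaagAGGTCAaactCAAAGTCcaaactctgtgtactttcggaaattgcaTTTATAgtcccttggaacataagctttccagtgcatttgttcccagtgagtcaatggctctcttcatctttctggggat

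The Cyp2c29 window held CAAAGTC at position −109 from the start site, and the Cyp2c70 window held it at −64. Counting both strands, CAAAGTC lay in 6 of the 9 member windows and in 4.44% of all 32851 windows of the same length. The 9 windows include the first Cyp2c39 window, which does not lie at the counted gene. AGGTCA lay in 3 of 9 member windows and 16.3% of all windows, and TATAAA in 6 of 9 and 13.6%. CAAGGTCA, which contains AGGTCA and is the extended half-site of LRH-1, lay in 0 of 9 and 1.56%. TATAAA lay at −19 in Cyp2c29, −31 in Cyp2c38 and −29 in Cyp2c55. It lay at −3 in the second Cyp2c39 window, at 41, past the start site, in Cyp2c40, and on the opposite strand in Cyp2c70. Start sites are those of RefSeq and were not checked in these data. These motifs were chosen after the letters of the windows had been read, and close copies share sequence, so the windows are not independent. The matches to CAAAGTC follow with 15 bases on either side, capitals marking the motif, for comparison between copies.
Cyp2c29 at −109: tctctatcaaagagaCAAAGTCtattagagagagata
Cyp2c37 at −184: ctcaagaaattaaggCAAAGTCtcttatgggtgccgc
Cyp2c37 at −116: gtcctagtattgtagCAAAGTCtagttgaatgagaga
Cyp2c39, first window, at −114: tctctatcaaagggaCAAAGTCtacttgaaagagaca
Cyp2c39, second window, at −86: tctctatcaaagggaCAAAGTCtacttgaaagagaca
Cyp2c40 at −45: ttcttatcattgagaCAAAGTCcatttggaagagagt
Cyp2c70 at −64: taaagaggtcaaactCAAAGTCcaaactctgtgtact

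CAAAGTC was in the windows of Cyp2c29 and Cyp2c37, which fell, and in those of Cyp2c40 and Cyp2c70, which did not pass the test. The matches were not alike beyond these letters. The letters right after CAAAGTC were ca in Cyp2c40 and Cyp2c70, and ta or tc in Cyp2c29, Cyp2c37 and Cyp2c39. The letters were absent from the windows of Cyp2c50 and Cyp2c55, which fell, and of Cyp2c38, which did not pass. The match in Cyp2c70 lay beside an AGGTCA at −74, and Cyp2c29 had an AGGTCA at −154. A match is a description of the letters and not a bound site. Exact matches to CAAAGTC were present in some and absent from other windows, both among members that fell and among the rest. Cyp2c44 and Cyp2c54, which fell, had no window. The part of these letters in the members' response was not tested.

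Members were compared with limma voom across 11794 genes, with Benjamini-Hochberg adjusted p under 0.05 as the threshold. Of 10 members 9 passed the filter on low counts, 6 fell, 0 rose and 3 did not pass the threshold. Cyp2c55 met the filter of 1.83 CPM only through its wild-type libraries, since knockout replicates 1 and 3 lay below it (1.60 and 1.48 CPM). Over all genes tested 6.94% fell and 7.58% rose. An unadjusted p under 0.05, in either direction, was reached by 7 members and by 30.6% of all genes tested. The members that fell were Cyp2c29, Cyp2c37, Cyp2c44, Cyp2c50, Cyp2c54 and Cyp2c55. For these 6 each knockout library lay below each wild-type library, as was so for 17.9% of all genes tested. All 6 calls held whichever of the 6 libraries was left out.

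**Figure D1:**
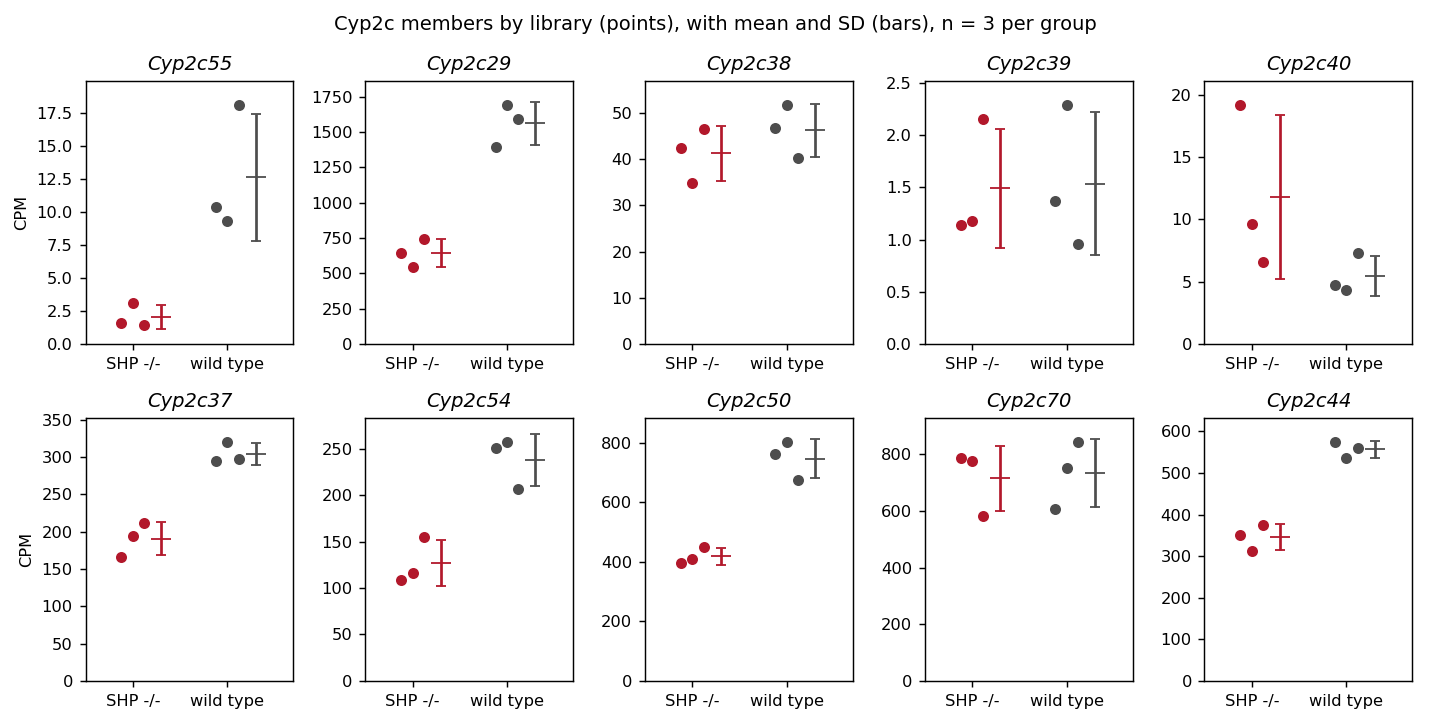
CPM of each member in each library (points; y axes start at 0 and differ between panels), with the group mean and SD beside them, SHP -/- left of wild type, n = 3 each. The groups do not overlap for Cyp2c55, Cyp2c29, Cyp2c37, Cyp2c54, Cyp2c50 and Cyp2c44, and they overlap for Cyp2c38, Cyp2c39, Cyp2c40 and Cyp2c70.

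Cyp2c29, an arachidonic acid epoxygenase and a known target of CAR, had the largest loss in CPM of the members. Its gene (ENSMUSG00000003053; mm9 chromosome 19, 39361601 to 39405189, plus strand) had 644, 544 and 743 CPM in knockout livers, from 2821, 2771 and 5535 counts. Wild-type livers had 1398, 1691 and 1594 CPM, from 8192, 8139 and 10036 counts. The highest knockout library was thus well below the lowest wild-type library. The mean was 644 ± 99.4 CPM in knockout and 1561 ± 150 CPM in wild type (SD, n = 3 each), a log2 difference of −1.28 ± 0.12 (SE; 95% interval −1.54 to −1.02; adjusted p = 5.00e-05 by limma voom). Without 1 library it ranged from −1.39 to −1.16.

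Cyp2c38, which did not pass the threshold, and Cyp2c39, which could not be tested, lie next to Cyp2c29. Cyp2c38 (ENSMUSG00000032808; chromosome 19, 39464046 to 39537565, minus strand), another arachidonic acid epoxygenase, had 42.5, 34.8 and 46.6 CPM in knockout and 46.7, 51.7 and 40.2 CPM in wild type. These values overlapped, and the log2 difference was −0.14 ± 0.15 (SE; 95% interval −0.46 to 0.17; adjusted p = 0.552 by limma voom). Cyp2c39 (ENSMUSG00000025003; chromosome 19, 39585352 to 39643019, plus strand), which hydroxylates retinoic acid, was barely detected. It had 5, 6 and 16 counts in knockout and 8, 11 and 6 counts in wild type, did not reach the filter, and has no test. A difference in Cyp2c39 was not detectable at this depth. Within a library the counts of Cyp2c29 were 15.2, 15.7 and 16.0 times those of Cyp2c38 in knockout and 29.9, 32.7 and 39.7 times in wild type. The groups did not overlap in this ratio, and a two-sided exact permutation test gave p = 0.1, below which 3 against 3 samples cannot go (adjusted over 5 ratios, 0.1; the ratios were chosen after the values were seen).

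Cyp2c37, Cyp2c50 and Cyp2c54 form a group of close copies near the other end of the cluster, before Cyp2c70. All of them fell, with log2 differences from −0.91 to −0.67. Their enzymes oxidise arachidonic acid and, for Cyp2c50 and Cyp2c54, linoleic acid. Cyp2c50 (ENSMUSG00000054827; chromosome 19, 40164178 to 40188440, plus strand) had 396, 410 and 451 CPM in knockout and 763, 804 and 675 CPM in wild type. The knockout libraries lay close together, and none reached the wild-type range. The log2 difference was −0.83 ± 0.10 (SE; adjusted p = 0.000312 by limma voom), from means of 419 ± 28.9 CPM in knockout and 747 ± 66.0 CPM in wild type (SD, n = 3 each).

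Cyp2c37 (ENSMUSG00000042248; chromosome 19, 40066914 to 40086733, plus strand) had 167, 195 and 211 CPM in knockout and 294, 321 and 297 CPM in wild type. It fell by 0.67 on the log2 scale (SE 0.11; adjusted p = 0.00168 by limma voom), with the groups apart. Cyp2c54 (ENSMUSG00000067225; chromosome 19, 40112431 to 40148301, minus strand) had 109, 116 and 155 CPM in knockout and 251, 258 and 206 CPM in wild type. Knockout replicate 3 was the highest and wild-type replicate 3 the lowest of its group, and the groups still did not meet. Its log2 difference was −0.91 ± 0.14 (SE; adjusted p = 0.00115 by limma voom).

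Cyp2c44 lies apart from the cluster (ENSMUSG00000025197; chromosome 19, 44079519 to 44103689, minus strand) and encodes an arachidonic acid epoxygenase of liver and kidney. It had 352, 312 and 375 CPM in knockout and 575, 535 and 560 CPM in wild type. Each group was tight, with a mean of 347 ± 31.8 CPM in knockout and 557 ± 20.3 CPM in wild type (SD, n = 3 each). The log2 difference was −0.69 ± 0.10 (SE; adjusted p = 0.000920 by limma voom).

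Cyp2c55, known as an epoxygenase and hydroxylase of arachidonic acid that is abundant in mouse colon, had the largest fold change of the members at a low level. Its gene (ENSMUSG00000025002; chromosome 19, 39081509 to 39117183, plus strand) is the first member along the cluster. It had 7, 16 and 11 counts in knockout, against 61, 45 and 114 counts in wild type. In CPM these were 1.60, 3.14 and 1.48 in knockout and 10.4, 9.35 and 18.1 in wild type, with wild-type replicate 3 the highest. The log2 difference was −2.65 ± 0.46 (SE; 95% interval −3.64 to −1.66; adjusted p = 0.00264 by limma voom), and it ranged from −2.94 to −2.33 without 1 library. Among markers of gut epithelium, the tissue where Cyp2c55 is best known, 1 of 4 tested fell (Fabp2, an intestinal fatty acid-binding protein also made in liver, −1.30 ± 0.16 SE, adjusted p = 0.000315 by limma voom), and the other 3, Car1 (0.37), Lgals4 (−0.06) and Tff3 (1.36), did not pass. Over all genes tested 6.94% fell. The list of gut markers had a median log2 difference of 0.16 and summed to 43.9 to 52.3 CPM in knockout and 67.7 to 82.5 CPM in wild type. Without Fabp2 it summed to 25.0 to 28.1 CPM in knockout and 18.3 to 29.3 CPM in wild type, which overlapped. The part of gut-type RNA in the Cyp2c55 difference was not tested.

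Cyp2c40, whose enzyme hydroxylates arachidonic acid, was the only tested member with a mean above wild type, and the excess was uncertain. Its gene (ENSMUSG00000025004; chromosome 19, 39841561 to 39887218, minus strand) had 84, 49 and 49 counts in knockout and 28, 21 and 46 counts in wild type. In CPM these were 19.2, 9.62 and 6.58 in knockout and 4.78, 4.36 and 7.31 in wild type, so knockout replicate 3 lay inside the wild-type range. The log2 difference was 0.84 ± 0.39 (SE; adjusted p = 0.161 by limma voom). Without knockout replicate 3 it was 1.28 and passed the threshold (adjusted p = 0.0298). With the counts of its close copies Cyp2c67 and Cyp2c68 added, the difference was −0.03 (adjusted p = 0.861 by limma voom). Cyp2c40 gave 11.8 of the 306 CPM of that sum in knockout and 5.48 of the 313 CPM in wild type. The sum therefore cannot show whether Cyp2c40 itself differed.

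Cyp2c70, the muricholic acid enzyme, stood out by its level and by the absence of a call. Its gene (ENSMUSG00000060613; chromosome 19, 40227857 to 40261776, minus strand) is the last member along the cluster, next to Cyp2c50. It had 788, 775 and 583 CPM in knockout and 605, 752 and 844 CPM in wild type. The groups overlapped, with means of 715 ± 115 CPM in knockout and 734 ± 121 CPM in wild type (SD, n = 3 each). The log2 difference was −0.04 ± 0.14 (SE; 95% interval −0.34 to 0.26; adjusted p = 0.882 by limma voom), an interval that does not reach the estimate of any member that fell. It was 0.11 without knockout replicate 3 and 0.07 without wild-type replicate 3.

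**Figure D2:**
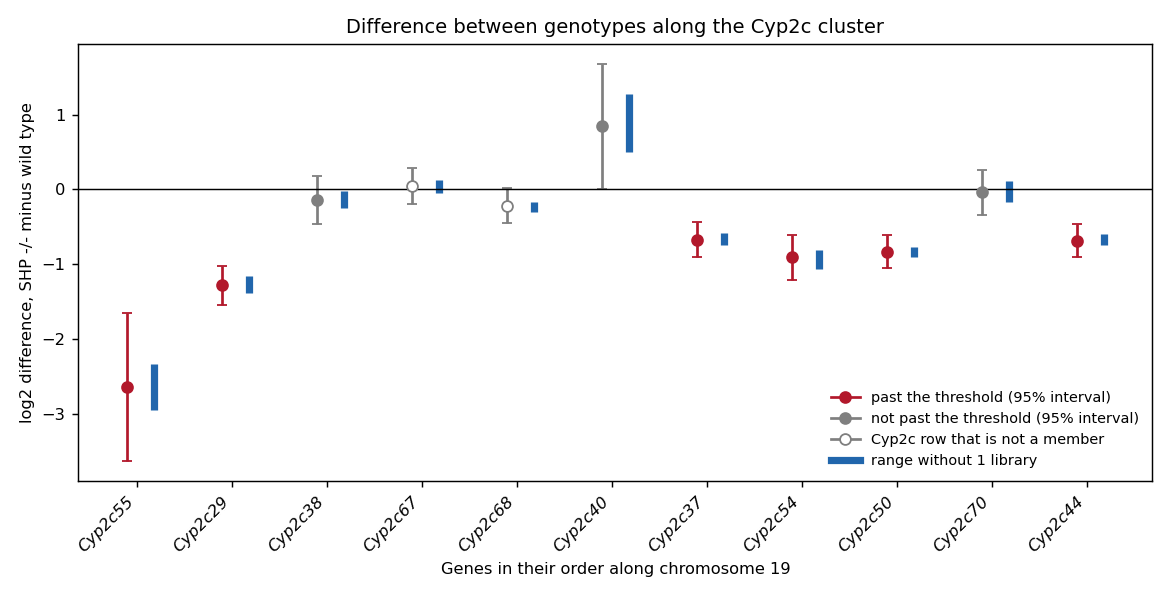
Difference in log2 CPM between SHP -/- and wild-type liver for each tested Cyp2c gene in its order along chromosome 19 (x axis is not to scale; Cyp2c44 lies apart), with 95% intervals from limma voom and the range over fits without 1 library. Members that fell lie along the cluster from Cyp2c55, its first member, to Cyp2c50, beside its last member Cyp2c70, and include Cyp2c44. Cyp2c38, Cyp2c40 and Cyp2c70 are not past the threshold.

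The table also held counts for other genes of the family that are not members. Cyp2c67 had 188, 168 and 188 CPM in knockout and 154, 179 and 196 CPM in wild type (log2 difference 0.05 ± 0.11 SE; adjusted p = 0.824 by limma voom). Cyp2c68 had 115, 109 and 115 CPM in knockout and 139, 116 and 140 CPM in wild type (−0.22 ± 0.11 SE; adjusted p = 0.200 by limma voom). Neither passed the threshold. Cyp2c65 had 0, 2 and 3 counts in knockout and 0 in each wild-type library, and was not tested.

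The make-up of the family's transcripts was also described, as the share of each member within a library. Cyp2c29 took 25.6%, 22.7% and 28.9% of the summed member counts in knockout and 35.4%, 38.2% and 37.6% in wild type. Cyp2c70 took 31.3%, 32.3% and 22.6% in knockout and 15.3%, 17.0% and 19.9% in wild type. Neither share overlapped between groups: Cyp2c29 was lower and Cyp2c70 higher in knockout. A share is a ratio within a library and does not depend on library scaling. Shares in a library add up to a fixed total, so the fall of some members raises the shares of the rest. Cyp2c70 averaged 715 CPM in knockout and 734 CPM in wild type while its share was higher in knockout. The shares come from the same counts as the differences above and are not separate evidence.

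The mean share of Cyp2c29 was 25.7% ± 3.09 in knockout and 37.0% ± 1.47 in wild type, and that of Cyp2c70 was 28.7% ± 5.31 in knockout and 17.4% ± 2.32 in wild type (SD, n = 3 each; two-sided exact permutation p = 0.1 for each, the smallest possible; 0.2 adjusted over 10 members). The shares of Cyp2c38 and Cyp2c40 were also higher and that of Cyp2c55 lower in each knockout library, with the same p. Cyp2c37, Cyp2c39, Cyp2c44, Cyp2c50 and Cyp2c54 had overlapping shares. Set directly against Cyp2c70, the counts of Cyp2c29 were 0.818, 0.702 and 1.28 times those of Cyp2c70 in knockout and 2.31, 2.25 and 1.89 times in wild type. Cyp2c44 was 0.447, 0.403 and 0.644 times Cyp2c70 in knockout and 0.951, 0.712 and 0.664 times in wild type. Both ratios were lower in each knockout library than in any wild-type library, narrowly for Cyp2c44, and the two-sided exact permutation test gave p = 0.1 for each.

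**Figure D3:**
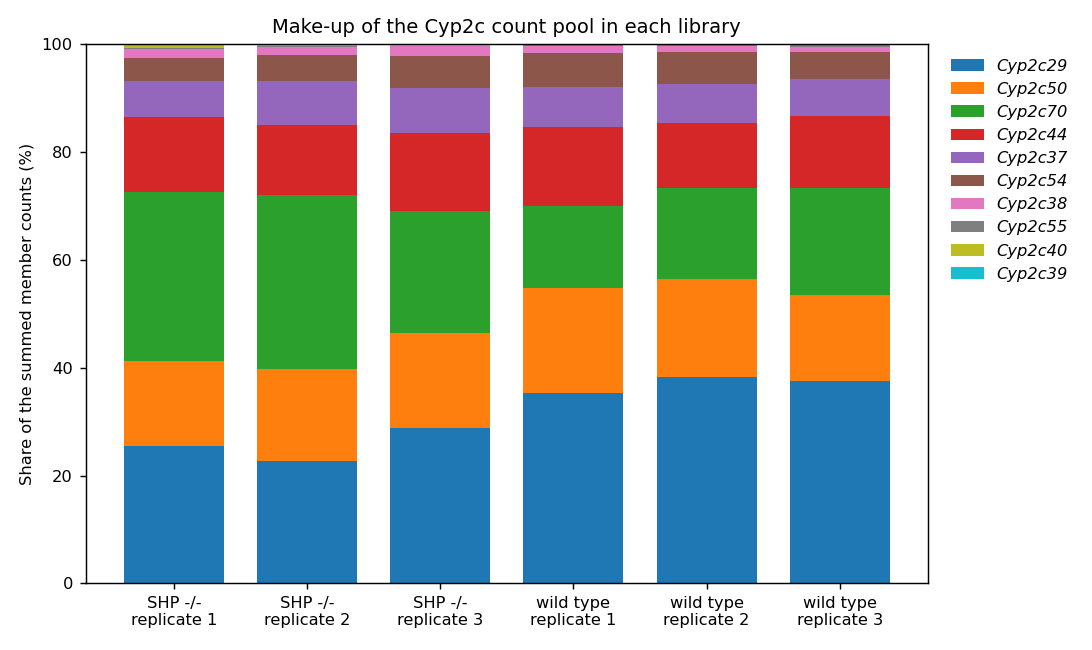
Share of each member in the summed counts of the 10 members, in percent, for each SHP -/- library (left) and wild-type library (right). Cyp2c29 takes 22.7% to 28.9% in knockout and 35.4% to 38.2% in wild type, and Cyp2c70 takes 22.6% to 32.3% in knockout and 15.3% to 19.9% in wild type.

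Levels were compared between genes as CPM per kilobase of the length given in the table. In knockout, Cyp2c70 came first at 420 ± 67.5 CPM per kilobase, and its libraries overlapped with those of Cyp2c29 at 369 ± 56.9 (SD, n = 3 each). In wild type, Cyp2c29 came first at 894 ± 85.7 CPM per kilobase and lay apart from Cyp2c70 at 431 ± 70.9. Below these came Cyp2c44, Cyp2c50, Cyp2c37, Cyp2c54 and Cyp2c38 in both groups, each apart from its neighbour in the order. Cyp2c44 was at 182 ± 16.7 CPM per kilobase in knockout and 292 ± 10.6 in wild type, and Cyp2c38 at 14.4 ± 2.09 in knockout and 16.1 ± 2.02 in wild type. At the low end the order was Cyp2c40, Cyp2c55 and Cyp2c39 in knockout, where Cyp2c55 and Cyp2c39 overlapped, and Cyp2c55, Cyp2c40 and Cyp2c39 in wild type.

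Members are close copies, and a read from a shared stretch cannot be given to 1 gene with certainty. Over the 45 pairs of members, identity between coding transcripts (GENCODE M21) ran from 64.9% for Cyp2c40 and Cyp2c44 to 95.8% for Cyp2c37 and Cyp2c50, with a median of 76.8%. At the read length of 36 bases, Cyp2c44 and Cyp2c70 shared 0% of their windows with another gene. Cyp2c55 shared 2.65%, Cyp2c29 11.9% and Cyp2c38 13.6%. Cyp2c54 shared 37.1%, Cyp2c37 42.1% and Cyp2c50 42.2%, each mostly within the 3. Cyp2c40 shared 79.4%, with Cyp2c69 as its closest partner.

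The sources used here do not give how reads with several alignments were counted. The fall of Cyp2c44 and the lack of a call for Cyp2c70 therefore rest on transcripts with no shared windows, and those of Cyp2c55 and Cyp2c29 on transcripts with few. For the others, sums over copies are less dependent on read assignment. The sum of Cyp2c29, Cyp2c38 and Cyp2c39 had a log2 difference of −1.23 ± 0.12 (SE; adjusted p = 6.45e-05 by limma voom). Cyp2c29 gave 1561 of the 1609 CPM of this sum in wild type, so the sum says little about Cyp2c38 or Cyp2c39. It also leaves out Cyp2c53-ps, the gene with which Cyp2c29 shared most windows (7.95%). The sum of Cyp2c37, Cyp2c50 and Cyp2c54 had a log2 difference of −0.81 ± 0.11 (SE; adjusted p = 0.000462 by limma voom). The sum of Cyp2c40, Cyp2c67 and Cyp2c68 was at 306 ± 17.9 CPM in knockout and 313 ± 25.9 CPM in wild type (SD, n = 3 each), and did not pass. Cyp2c40 was a small part of it, at 11.8 CPM in knockout and 5.48 CPM in wild type. The sum also leaves out Cyp2c69, which had no counts and with which Cyp2c40 shared most windows (48.6%).

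**Figure D4:**
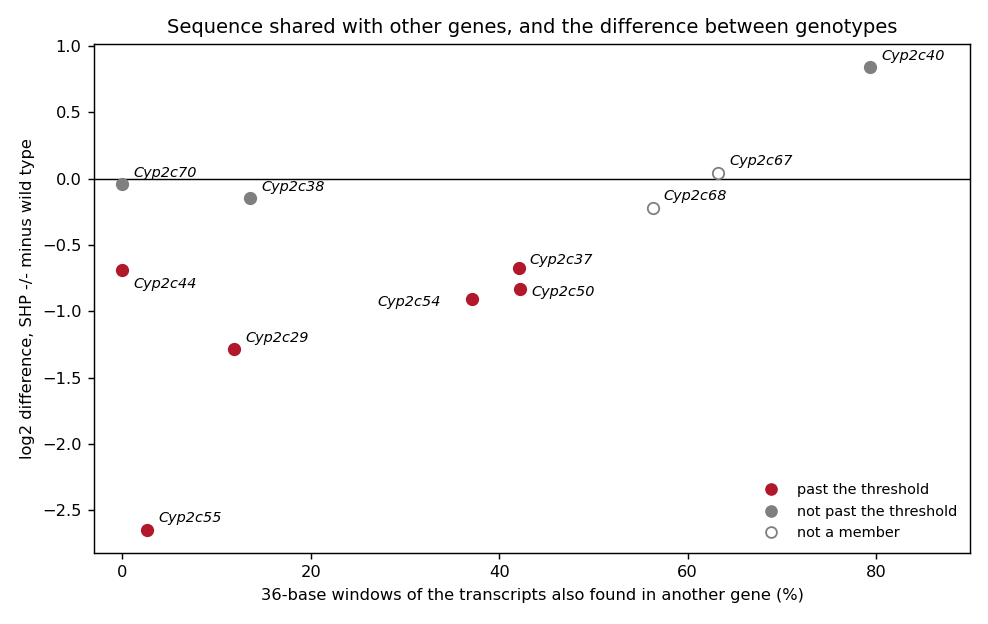
Percentage of the 36-base windows of each Cyp2c gene's transcripts that also occur in another gene (x axis) against its log2 difference between SHP -/- and wild-type liver (y axis). Cyp2c44 and Cyp2c70, both at 0%, lie at −0.69 and −0.04, and Cyp2c40, the highest on the y axis at 0.84, shares 79.4%.

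The authors' deposited table gave a log2 ratio of knockout over wild type for pooled groups. Its header names group sums with 1 added, but the raw count sums do not give these values. In the authors' deposited table the ratio was −2.50 for Cyp2c55, −1.27 for Cyp2c29, −0.90 for Cyp2c54, −0.83 for Cyp2c50, −0.68 for Cyp2c44 and −0.67 for Cyp2c37. For Cyp2c70 and Cyp2c38 the authors' deposited table gave −0.03 and −0.16, and for Cyp2c40 it gave 1.09. Every sign was that of the limma voom estimate for these 9 members. The pooled ratios carry no replicate error. The authors' adjusted p scores, where a higher score stands for a smaller p, were 32.3 to 196 for the members that fell. The score was 16.2 for Cyp2c40, well above 0.861 for Cyp2c38 and 0.693 for Cyp2c70, though limma voom called none of these.

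Genes beside the members were mostly not called, as was so over all genes tested, of which 6.94% fell and 7.58% rose. Within 1000000 bases of the cluster, 15 other genes were tested, 1 fell, 0 rose, and their median log2 difference was −0.41, against −0.01 over all genes tested. The gene that fell was Plce1, a phospholipase C (−0.61 ± 0.16 SE; adjusted p = 0.0201 by limma voom), named after its value was seen. Plce1 was not called without knockout replicate 2, knockout replicate 3, wild-type replicate 2 or wild-type replicate 3 (adjusted p up to 0.0667). Within the same distance of Cyp2c44, 23 genes were tested, 3 fell, 0 rose, and the median was −0.08.

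Genes that supply CYP2C enzymes with electrons and haem were mostly not called, and the largest change was upward. Of 14 tested, 2 rose, 1 fell and 11 did not pass, with a median log2 difference of 0.18. Over all genes tested 6.94% fell and 7.58% rose, and these shares stand beside the counts of this list and of those below. Por, the electron donor of all microsomal P450s, rose to 431 ± 48.1 CPM in knockout, against 266 ± 39.4 CPM in wild type (0.70 ± 0.12 SE; adjusted p = 0.00296 by limma voom). Alas1, the rate-limiting enzyme of haem synthesis, averaged 447 ± 104 CPM in knockout and 223 ± 112 CPM in wild type (1.08 ± 0.26 SE; adjusted p = 0.0135 by limma voom). Its groups overlapped, and its call was lost without wild-type replicate 2 or 3 and under robust variance moderation (adjusted p up to 0.180). Cyb5b, a cytochrome b5 of the outer mitochondrial membrane, was at 584 ± 35.5 CPM in knockout and 737 ± 46.7 CPM in wild type (−0.33 ± 0.10 SE), and with 1 library left out its call was kept only without knockout replicate 3. Pgrmc1 and Cyb5, which both bind P450s, did not pass (−0.03 and 0.19). Without wild-type replicate 3, 1 rose and 0 fell; 0 fell also without knockout replicate 1, knockout replicate 2, wild-type replicate 1 or wild-type replicate 2.

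Among other genes of arachidonic acid and epoxide metabolism, 6 of 17 tested fell, 2 rose and 9 did not pass, with a median log2 difference of −0.10. Ephx1, microsomal epoxide hydrolase, had 246 ± 16.9 CPM in knockout and 464 ± 58.3 CPM in wild type (−0.91 ± 0.11 SE; adjusted p = 0.000301 by limma voom). Cyp2j5, an epoxygenase of another P450 family, had 613 ± 16.9 CPM in knockout and 898 ± 70.1 CPM in wild type (−0.55 ± 0.10 SE; adjusted p = 0.00283 by limma voom). Ephx2, soluble epoxide hydrolase, which opens the epoxides that these enzymes form, was at 517 ± 7.50 CPM in knockout and 666 ± 93.8 CPM in wild type (−0.36 ± 0.11 SE; adjusted p = 0.0435 by limma voom), and 5 of the 6 fits without 1 library did not call it. Cyp4a12a, a fatty acid omega-hydroxylase with close copies, rose by 1.20 ± 0.18 on the log2 scale. Cyp4f14 and Cyp4f15 did not pass (0.27 and −0.19). Without knockout replicate 1 or wild-type replicate 1, 1 rose.

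Known regulators of Cyp2c transcription moved in both directions: 8 of 23 tested rose, 4 fell and 11 did not pass, with a median of 0.14. Nr1i3, which encodes CAR, had 76.3, 63.4 and 108 CPM in knockout and 152, 142 and 138 CPM in wild type, with the groups apart (−0.82 ± 0.16 SE; adjusted p = 0.00466 by limma voom). Cebpa, which encodes C/EBP alpha, was higher in each knockout library, at 486 ± 20.3 CPM in knockout and 239 ± 26.6 CPM in wild type (1.02 ± 0.11 SE; adjusted p = 0.000101 by limma voom). Rxra, the partner of CAR and PXR, rose (0.44 ± 0.11 SE) and Rora, an orphan receptor of the liver, fell (−0.46 ± 0.13 SE); the call of Rxra was lost without knockout replicate 1 or wild-type replicate 3, and that of Rora also without knockout replicate 2. Hnf4a averaged 965 CPM in knockout and 876 CPM in wild type and did not pass (0.14; adjusted p = 0.371 by limma voom), and neither did Ppara (−0.14). Without knockout replicate 1, knockout replicate 2 or wild-type replicate 3 the number that fell was 2, and without wild-type replicate 3 the number that rose was 5.

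Among other genes listed as targets of CAR and PXR, 4 of 18 tested fell, 1 rose and 13 did not pass, with a median of −0.34. Cyp2a12, a steroid hydroxylase, was at 247 ± 22.1 CPM in knockout and 584 ± 26.3 CPM in wild type (−1.24 ± 0.10 SE; adjusted p = 1.71e-05 by limma voom). Cyp2a5, the coumarin hydroxylase, and Aldh1a7, an aldehyde dehydrogenase, fell by 1.36 and 0.58 on the log2 scale. Abcc3, a basolateral efflux pump, rose by 0.38, a call lost without knockout replicate 2 or 3 or wild-type replicate 1 or 3, each of which left 0 that rose. Cyp3a11, the main PXR target, averaged 2632 CPM in knockout and 3898 CPM in wild type and did not pass (−0.56; adjusted p = 0.0575 by limma voom), and neither did Aldh1a1 (0.34). Cyp3a11 did pass with no low-count filter (adjusted p = 0.0363), with sample quality weights (0.0470), without knockout replicate 2 (−0.72, adjusted p = 0.0229) and without wild-type replicate 1 (−0.79, adjusted p = 0.00931).

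Several Cyp2c genes are expressed differently in male and female mice, and all animals here were male. Of 9 tested female-biased genes 5 fell, 0 rose and 4 did not pass, with a median of −0.58; of 20 tested male-biased genes 3 rose, 2 fell and 15 did not pass, with a median of 0.03. Female-biased genes that fell included Cyp4a10 (−1.52 ± 0.24 SE) and Cyp4a14 (−1.13 ± 0.30 SE), fatty acid omega-hydroxylases with close copies, whose calls were lost under robust variance moderation, where 3 female-biased and 1 male-biased gene fell. That of Cyp4a14 was lost also without knockout replicate 1, knockout replicate 2, wild-type replicate 2 or wild-type replicate 3. Slco1a1, a male-biased uptake transporter, fell (−0.94 ± 0.11 SE; adjusted p = 0.000227 by limma voom), while Selenbp2, a male-biased selenium-binding protein, rose (0.85 ± 0.15 SE). The number of female-biased genes that fell was 2 without knockout replicate 2 or wild-type replicate 3 and 3 without knockout replicate 1, knockout replicate 3 or wild-type replicate 2. Without knockout replicate 3 the male-biased genes that rose numbered 6, and without wild-type replicate 2 those that fell numbered 4.

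Of 14 tested genes of the growth hormone and STAT5 axis, which sets the sex bias of liver P450s, 4 rose, 2 fell and 8 did not pass, with a median of 0.38. Ghr, the growth hormone receptor, had 501 ± 15.5 CPM in knockout and 706 ± 50.6 CPM in wild type (−0.49 ± 0.10 SE; adjusted p = 0.00523 by limma voom). Igf1, its secreted target, had 623 ± 9.75 CPM in knockout and 837 ± 54.1 CPM in wild type (−0.42 ± 0.09 SE), and without wild-type replicate 3 this call was lost, leaving 1 that fell. Onecut1, a hepatocyte transcription factor, rose by 2.16 on the log2 scale. The largest differences on the list were those of Cish and Socs3, feedback inhibitors of cytokine receptors, which are named after their values were seen. Cish averaged 62.0 ± 23.2 CPM in knockout and 5.66 ± 5.34 CPM in wild type (SD, n = 3 each; log2 difference 3.73 ± 0.58 SE, adjusted p = 0.00137 by limma voom). Socs3 averaged 68.8 ± 28.6 CPM in knockout and 10.5 ± 9.12 CPM in wild type (SD, n = 3 each; 2.86 ± 0.49 SE, adjusted p = 0.00236 by limma voom). Wild-type replicate 1 was the highest wild-type library for both, and without it the differences were 4.49 and 3.54; without wild-type replicate 2 that of Cish was 3.06. Under robust variance moderation 2 genes of the axis rose, and neither Cish nor Socs3 was called (adjusted p = 0.0653 and 0.0935).

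Cyp2c70 acts on bile acids. Of 12 tested genes of bile acid synthesis, 6 rose, 0 fell and 6 did not pass, with a median of 0.23. The 2 genes of highest level that rose were Slc27a5, which activates bile acids for conjugation (0.35 ± 0.09 SE; adjusted p = 0.0237 by limma voom), and Cyp8b1, which directs synthesis to cholic acid (1.72 ± 0.12 SE; adjusted p = 5.15e-06 by limma voom). Those that rose numbered 2 without knockout replicate 1, knockout replicate 2 or wild-type replicate 3, and 3 without knockout replicate 3 or wild-type replicate 1. Of the 6 fits without 1 library, 5 did not call Slc27a5, and all called Cyp8b1.

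Markers of liver cells were set beside the family. Of 12 tested hepatocyte markers 2 rose, 0 fell and 10 did not pass, and their summed level was 111249 to 117041 CPM in knockout and 99875 to 123682 CPM in wild type, so the sums overlapped. The call of 1 of the 2, Ahsg, was lost in each fit without 1 library, and the markers that rose numbered 1 without knockout replicate 3 or wild-type replicate 2 and 0 without any other library or under limma trend. Pericentral markers, of the zone where most P450s are high, had 5 higher, 4 lower and 11 not past of 20 tested, with Glul and Cyp2e1 not past the threshold and summed levels that overlapped (11974 to 13497 CPM in knockout, 11872 to 14217 CPM in wild type). Periportal markers had 5 higher, 4 lower and 11 not past of 20 tested, and 1 lower without wild-type replicate 3. The part of liver zones in the family's difference was not tested.

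By log2 CPM profile over the 6 libraries, the genes nearest to the family sum among 5510 of at least 20 CPM were Atp5h, a subunit of mitochondrial ATP synthase, Decr1, a dienoyl-CoA reductase of fatty acid oxidation, and Zbtb41. Their root mean square differences were 0.0477, 0.0531 and 0.0532 on the log2 scale. Nearest to Cyp2c29 were Fabp1, the liver fatty acid-binding protein, Es1, a carboxylesterase, and Eno1, an enolase, at 0.131, 0.145 and 0.147. Their log2 differences between genotypes were −1.13, −1.06 and −1.43, against −1.28 for Cyp2c29.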

How the data were processed

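Per the labels' protocols, liver RNA was extracted with TRIzol, 5′ capped RNA was selected with a high-affinity EIF4E variant, and barcoded libraries were read from both ends for 36 cycles. Values are therefore of capped RNA. The submitters' processing notes name Novoalign 2.05.33 and the mm9 build. The sources used here do not give the counting tool, the annotation release, or how strand and reads with several alignments were treated. The table that the authors deposited holds whole-number counts for each Ensembl gene in each library. RPKM and a log2 ratio were deposited for pooled groups only, per the file headers. The authors also deposited scores for p, which were not used for calls. Of 33495 genes listed, 19594 had counts and the rest had empty cells. Because lines of many empty genes end early, the count columns carry a general unit here, and limma voom was used in place of a negative binomial test. Coordinates are mm9, with starts raised by 1.

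The filter asked for 1.83 CPM in at least 3 libraries, equal to 10 counts in a library of median size, and for 15 counts in total. Trimmed means of M values gave library scaling factors of 0.966 to 1.03, and CPM are on scaled sizes. The model was limma 3.58.1 (voom with an offset of 0.5, lmFit and eBayes; R 4.3.3) on log2 CPM, with a term for genotype alone, and p-values were adjusted over all 11794 genes. The fit was tested on simulated data. Precision is limited by 3 libraries per group. The design text speaks of separate mice, so replicates were taken as animals. Transcript windows and identities came from GENCODE M21 and start-site windows from RefSeq GRCm38.p6, read with Python 3.11.15, pandas 2.3.3 and Biopython 1.88; plots used matplotlib 3.10.9. The alternatives were other scalings and totals, other filters, limma trend, robust moderation, quality weights, a replicate block, merged copies, and leaving out each library.

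The members and gene lists were chosen with earlier results of these data known. Named genes were all members, other Cyp2c genes with counts, Nr0b2, up to 4 called and 2 other genes of highest mean CPM per list, and the 3 nearest profiles. Not all genes of the rule are named, for length, and Cish, Socs3, Plce1 and Tff3 were added after their values were seen.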

Additional observations from a re-analysis of the deposited data

How the results depend on the processing

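The 6 members that fell did so in every fit that could test them: 6 in each fit without 1 library and under no scaling, median-of-ratios scaling, totals without mitochondrial genes, no low-count filter, limma trend, robust moderation, quality weights and the replicate block. The 50-count filter removed Cyp2c55 and left 5, and merging close copies gave 8, since the merged value stands for each copy. The members that rose numbered 0 to 1 without 1 library, the 1 being Cyp2c40 without knockout replicate 3. All genes past the threshold numbered 1713, and 629 to 1560 without 1 library, lowest without wild-type replicate 3 and 1070 without knockout replicate 1. Genes called in the pathway and regulator lists numbered 44, and 26 to 42 without 1 library. With close copies merged, the value that stands for both Cyp2c40 and Cyp2c67 was −0.033, and Cyp2c40 is a small part of that sum.

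Same-numbered libraries did not deviate together (r over genes −0.02 for each of the 3 pairs), and no library correlated best with its own number. With the replicate block 6 members fell, Cyp3a11 passed (adjusted p = 0.00538), and Nr0b2, Ahsg and Fgb did not (0.0553, 0.0527 and 0.0505). All genes past the threshold then numbered 1779.

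Over fits without 1 library, log2 differences spanned 0 for some genes that had not passed the threshold: Cyp2c70 −0.17 to 0.11, Cyp2c67 −0.049 to 0.12, Glul −0.090 to 0.068, Dcn −0.62 to 0.14, Lgals4 −0.26 to 0.13, Ppara −0.23 to 0.042, Igfbp1 −0.086 to 0.72, Cyp2e1 −0.17 to 0.012, Clec4f −0.020 to 0.25, Scp2 −0.14 to 0.074, Alb −0.054 to 0.19, Pgrmc1 −0.072 to 0.034 and Pck1 −0.016 to 0.11. The share of Cyp2c44 differed by −0.037 to 1.21 percentage points, lowest without wild-type replicate 2. The causes were not tested.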

Other observations

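Markers of other cell types were low, and few were called, as over all genes tested (6.94% fell and 7.58% rose). Of 12 tested Kupffer cell and macrophage markers 3 rose (C1qa, C1qc and Marco), 0 fell and 9 did not pass, and 0 rose without wild-type replicate 3 and 1 without knockout replicate 2 or wild-type replicate 2. Limma trend called 1 of them lower. Their summed level was 437 to 671 CPM in knockout and 431 to 505 CPM in wild type. Of 12 endothelial markers 1 rose (Lyve1), and 0 rose without knockout replicate 2, knockout replicate 3, wild-type replicate 2 or wild-type replicate 3 and 2 without knockout replicate 1; 1 fell without knockout replicate 2 and 2 without knockout replicate 3. Of 12 stellate cell and fibroblast markers 1 fell (Rgs5), 0 without wild-type replicate 3 and 2 without knockout replicate 3; 0 rose, but 3 without knockout replicate 1 and 1 without knockout replicate 3 or under limma trend. Of 5 cholangiocyte markers 0 were called by limma voom in any fit without 1 library. The 1 kidney tubule marker tested, Lrp2, rose by 2.36 on the log2 scale from a list summing to 4.71 to 8.19 CPM in knockout and 0.831 to 2.06 CPM in wild type. Lymphocyte and neutrophil markers had 0 tested genes and summed to 2.36 to 4.43 CPM in knockout and 4.29 to 5.40 CPM in wild type. Their part in the family's differences was not tested.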
